A study of Homo sapiens with 2 samples.

Results

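The 500 regions described here are stretches of open chromatin that were called in both libraries of an ATAC-seq study and whose peak was at least 2 times as high after MAK683 as after DMSO. Overlapping peaks of the 2 libraries on chromosomes 1 to 22 were merged, and 56828 merged regions held a peak of each library. The height of a region was its largest pileup, in tags, per 1000000 tags kept by the peak caller, and a region was chosen where the log2 ratio of the MAK683 height to the DMSO height was at least 1. The chosen regions were 0.880% of the shared regions, whereas 3157 shared regions, 5.56%, had a ratio of at most -1. These heights chose the regions, so heights, ratios and peak lengths are given below as description and were not tested.

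Both libraries came from G401, an established human cell line derived from a rhabdoid tumor of the kidney, a malignant tumor type that lacks the chromatin remodeling subunit SMARCB1. One culture was given the solvent DMSO and the other was given MAK683 at 3 µM, and both were harvested after 3 days. There was 1 library per group, so no difference below has a replicate check, no p-value was computed, and treatment and library cannot be told apart. In a pooled culture, more cells with an open site and a wider opening in each cell cannot be told apart either.

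Polycomb repressive complex 2 (PRC2) places methyl groups on lysine 27 of histone H3. Its EED subunit reads that mark and stimulates the enzyme, and MAK683 occupies the pocket of EED that does so. PRC2 sits mostly at CpG islands, which are stretches dense in CG dinucleotides, of silent genes for developmental transcription factors, signaling molecules and matrix proteins. In ATAC-seq the transposase Tn5 cuts exposed DNA, so that sequence tags pile up where chromatin is open.

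The DNA under the doubled peaks ranged from CpG islands at promoters to sequence with no CG dinucleotide. The 7 windows below show that range. Each is the 200 bp on the MAK683 summit, read from the plus strand of GRCh37 (hg19), with CG dinucleotides in capitals. The first 3 lay no more than 3 kb from a transcription start site (TSS), that of a gene with a role in adhesion, development or signaling. Each gene was given a single TSS, so other start sites of a gene were not counted, here and below.
ITGA2 promoter, chr5:52285386-52285585: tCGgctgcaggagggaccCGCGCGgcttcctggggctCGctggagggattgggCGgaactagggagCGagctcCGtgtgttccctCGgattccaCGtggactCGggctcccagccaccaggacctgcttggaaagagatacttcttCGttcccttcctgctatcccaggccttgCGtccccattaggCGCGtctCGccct
IRX4 promoter, chr5:1883830-1884029: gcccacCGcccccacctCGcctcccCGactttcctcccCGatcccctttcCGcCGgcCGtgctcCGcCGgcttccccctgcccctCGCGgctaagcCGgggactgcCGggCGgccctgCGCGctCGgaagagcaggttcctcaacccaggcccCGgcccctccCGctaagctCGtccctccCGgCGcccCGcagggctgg
TGFBR2 promoter, chr3:30648541-30648740: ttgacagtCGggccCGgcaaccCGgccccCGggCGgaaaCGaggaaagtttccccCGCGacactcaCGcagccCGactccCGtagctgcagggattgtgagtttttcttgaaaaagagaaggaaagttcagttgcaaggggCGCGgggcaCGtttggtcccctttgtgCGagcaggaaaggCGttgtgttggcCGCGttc
The next pair lay within or beside genes for developmental transcription factors, away from the TSS used for each coding gene, and held fewer CG dinucleotides.
PAX3 intron, chr2:223156056-223156255: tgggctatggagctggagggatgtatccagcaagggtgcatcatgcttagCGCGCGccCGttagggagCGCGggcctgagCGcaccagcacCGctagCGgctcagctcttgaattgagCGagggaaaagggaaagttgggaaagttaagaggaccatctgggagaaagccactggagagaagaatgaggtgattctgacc
upstream of GATA3, chr10:8085148-8085347: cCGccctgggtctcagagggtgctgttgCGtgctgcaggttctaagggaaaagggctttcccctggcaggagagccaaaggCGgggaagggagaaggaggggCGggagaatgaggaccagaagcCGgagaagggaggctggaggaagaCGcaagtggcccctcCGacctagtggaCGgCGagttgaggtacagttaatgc
The last pair had the largest ratios of all regions with at least 20 MAK683 tags. The first of them held no CG dinucleotide and was a tandem repeat, in which 98.5% of bases matched the base 63 positions on.
near ART1, chr11:3675649-3675848: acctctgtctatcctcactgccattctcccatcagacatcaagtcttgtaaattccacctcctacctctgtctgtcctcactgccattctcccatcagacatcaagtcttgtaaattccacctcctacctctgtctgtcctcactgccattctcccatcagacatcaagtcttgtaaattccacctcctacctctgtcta
ESRRG intron, chr1:217251833-217252032: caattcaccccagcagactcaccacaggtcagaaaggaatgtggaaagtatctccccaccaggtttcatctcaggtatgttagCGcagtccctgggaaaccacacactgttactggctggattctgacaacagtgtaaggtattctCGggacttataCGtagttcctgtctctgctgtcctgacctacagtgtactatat
The windows of the ITGA2, IRX4 and TGFBR2 promoters held 16, 23 and 18 CG dinucleotides, those at PAX3 and GATA3 held 10 and 9, and that at ESRRG held 3. A tandem repeat of this kind, with at least 80% of bases matched at a shift of 20 to 100 bp, was found at 1 of the 500 doubled regions and at 0.167% of all shared regions.

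The doubled regions were low peaks in the DMSO library. Their DMSO pileup ranged from 6 to 23 tags with a median of 9, which is 0.542 tags per 1000000 (RPM). Their MAK683 pileup ranged from 14 to 86 tags with a median of 22.5, which is 1.23 RPM. All shared regions had medians of 14 tags in DMSO and 13 in MAK683. The median log2 ratio was 1.18 in the doubled regions and -0.33 over all shared regions. Most ratios lay close to the limit, since 264 regions were between 1.0 and 1.2, 58 were at 1.5 or more and 4 were at 2 or more. Most shared regions were lower in MAK683, and with ratios taken relative to their median of -0.33, 1774 regions were doubled.

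**Figure D1:**
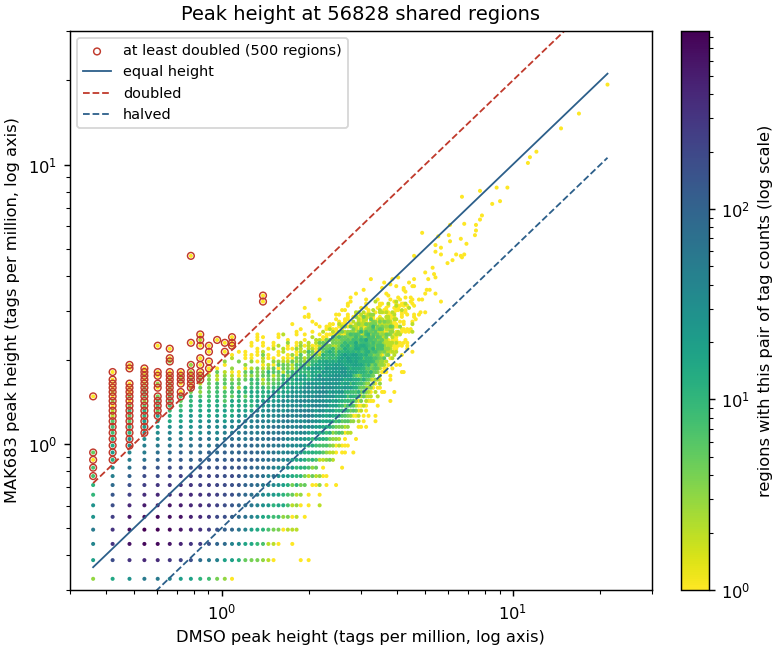
Peak height in RPM in the DMSO library (horizontal, log axis) and in the MAK683 library (vertical, log axis), with 1 point for each pair of tag counts, coloured by the number of the 56828 shared regions that have it. The 500 doubled regions, ringed in red, lie above the upper dashed line at DMSO pileups of 6 to 23 tags, and no taller DMSO peak reaches that line.

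Counting error was large at these heights. The 95% counting interval of the log2 ratio lay above 0 at 320 of the 500 regions, or 64.0%, which was 0.563% of all shared regions. The same tags chose the regions, so these intervals, here and for each region below, describe counting error and test nothing. At the limit, 27 regions with 9 tags in DMSO and 20 in MAK683 (log2 ratio 1.01) were taken, as were 4 with 14 and 31 tags (1.01) and 2 with 13 and 29 tags (1.02). Just outside, 16 regions with 10 and 22 tags (log2 ratio 0.999) were not taken, nor were 1 with 15 and 33 tags (0.999) and 9 with 11 and 24 tags (0.99). A single tag therefore decided the place of many regions. The share of shared regions that were doubled was 6.43% at 6 to 7 DMSO tags, 2.97% at 8 to 9, 0.818% at 10 to 12, 0.391% at 13 to 15, 0.0729% at 16 to 20 and 0.0116% above 20 tags.

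The peaks were also longer in the MAK683 library. Within the doubled regions the called MAK683 peaks covered a median of 1311 bp and the DMSO peaks 400 bp. Over all shared regions the medians were 704 bp and 813 bp. The MAK683 peak was the longer at 96.4% of doubled regions and at 35.1% of all shared regions. In 16.2% of doubled regions the DMSO signal was split into more than 1 called peak, and in 1% the MAK683 signal was, against 9.17% and 15.6% of all shared regions. A fixed tag threshold calls a higher pileup over a longer stretch, so that length and height are not independent measures.

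The region with the largest ratio lay in an intron on chromosome 11, from 3674683 to 3676281, at 9391 bp from the TSS of ART1, an ADP-ribosyltransferase gene. Its pileup was 13 tags in DMSO and 86 in MAK683 (0.783 and 4.71 RPM), a log2 ratio of 2.59 with a 95% counting interval of 1.75 to 3.43. It stood apart from the others in height, and it is the region with the 63 bp tandem repeat printed above. How reads were placed among the copies of this repeat was not given in the sources used here.

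Several of the next largest ratios belonged to regions in or near genes of developmental regulators. In an intron of ESRRG, which encodes an orphan nuclear receptor, the pileup was 7 tags in DMSO and 33 in MAK683 (log2 ratio 2.1, interval 0.92 to 3.28). That region lay 355162 bp from the TSS used for ESRRG, and its distance to other start sites of the gene was not measured. In the intron printed above at 7561 bp from the TSS used for PAX3, a neural crest factor, the pileup was 8 and 34 tags (1.95, 0.84 to 3.06). Both intervals lay above 0. Upstream of GATA3, a zinc finger factor of lymphoid, kidney and mammary development, a region 11403 bp from the TSS went from 7 to 29 tags (1.91, 0.72 to 3.10). At the GATA3 promoter itself the pileup was 32 tags in DMSO and 27 in MAK683 (-0.38, -1.12 to 0.36), so the promoter peak was not among the doubled regions. A region 6468 bp from the TSS of HAND1, a basic helix-loop-helix factor of heart and neural crest, had 7 and 28 tags (1.86, 0.67 to 3.06).

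Other regions with high ratios had no developmental regulator beside them. The RAD51AP2 promoter had 7 tags in DMSO and 30 in MAK683 (log2 ratio 1.96), and an intronic region whose nearest coding start, at 150024 bp, was that of FGGY, a carbohydrate kinase gene, had 6 and 27 tags (2.03). An intronic region on chromosome 3, at 79366 bp from the TSS of a lncRNA gene and 397812 bp from the nearest coding TSS, had 7 and 28 tags (1.86), and one at the TSS of the antisense transcript OXR1-AS1 had 10 and 41 tags (1.90). A region with 7 and 31 tags (2.01) lay at FAM138D, a member of a family of near-identical copies at chromosome ends, so that its reads could belong to other copies.

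Among doubled regions within 3 kb of a protein-coding TSS, the tallest in MAK683 were at CTTNBP2, which encodes a cortactin-binding protein of neurons, and at GCA, which encodes the calcium-binding protein grancalcin. Each had 43 MAK683 tags, with 14 DMSO tags at CTTNBP2 (log2 ratio 1.48) and 16 at GCA (1.29). NDRG1 had 18 and 42 tags (1.08), and GRIA4, an AMPA receptor subunit gene, had 14 and 41 tags (1.41). LIN7A had 17 and 39 tags (1.06), and FMN2, an actin nucleator gene, had 11 and 37 tags (1.61). ST6GALNAC5, a sialyltransferase gene, and the near-identical pair NPY4R and NPY4R2 each had 11 and 36 tags (1.57). These were modest peaks even after MAK683, at 1.97 to 2.35 RPM, whereas the tallest shared region reached 19.3 RPM in MAK683.

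**Figure D2:**
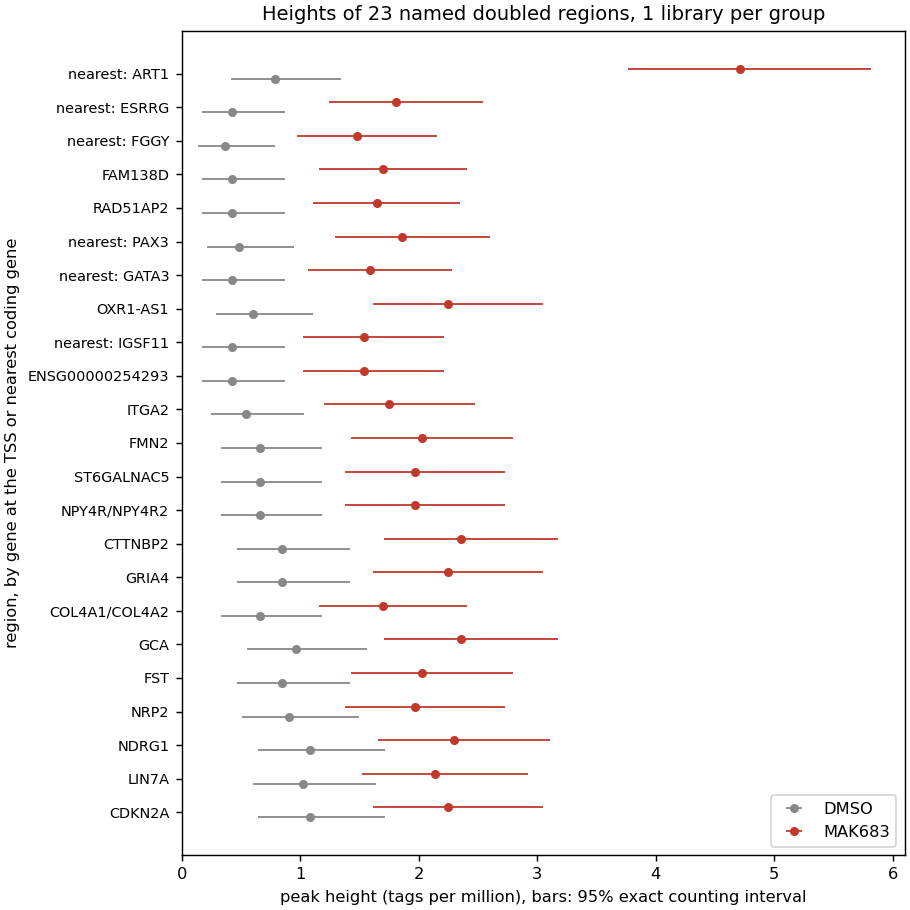
Peak height in RPM (horizontal) of doubled regions with the largest ratios, of the tallest at coding promoters and of those at genes named in the study, in DMSO (grey) and MAK683 (red), 1 library each, with bars for the 95% exact counting interval. They are ordered by log2 ratio, from 2.59 near ART1 at the top to 1.05 at CDKN2A at the bottom, and their DMSO values lie between 0.361 and 1.08 RPM.

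As defined here, the doubled regions lay at promoters and in CpG islands a little more often than shared regions as a whole, an excess that depended on the definition. In all, 250 of 500, or 50% (95% Wilson interval 45.6 to 54.4%), lay within 3 kb of a TSS of any gene, against 41.6% of all shared regions. A protein-coding TSS was as near at 179 regions, or 35.8% (31.7 to 40.1%), against 29.8%. The 500 bp on the summit was CpG-rich, with at least 50% GC and a CpG observed/expected ratio of at least 0.6, at 137 regions, or 27.4% (23.7 to 31.5%), against 21.6%. With ratios centred on the median of all shared regions the excess was gone, at 42.6%, 29.5% and 21.8% of 1774 regions in the same order. Halved regions had 41.3% near a TSS and 22.7% CpG-rich. Base composition as such hardly differed, with a median GC content of 53.2% in doubled and 53.4% in all shared regions. Of the summits, 49.8% were in introns, 29.0% between genes, 8.40% in UTRs and 6.60% in noncoding exons. The shares over all shared regions were 48.8%, 31.7%, 8.99% and 6.69% in the same order. Coding exons held 6.2% (4.40 to 8.67%) of the summits of doubled regions and 3.81% of all.

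Tall peaks are CpG-rich more often than low ones, so the comparison depended on which library's height was matched. Among regions with 6 to 9 DMSO tags, 21.9% of doubled regions were CpG-rich (77 of 352, 17.9 to 26.5%) against 3.50% of 9381 others. Among those with 10 to 23 DMSO tags, the shares were 40.5% (60 of 148, 33.0 to 48.6%) and 9.72% of 32896. Within a range of DMSO tags, however, the rule picks the regions with the tallest MAK683 peaks. Within a range of MAK683 tags it picks those with the lowest DMSO peaks. Both comparisons are therefore descriptions and test nothing. Matched on the MAK683 height, the order turned round. With 23 to 86 MAK683 tags, 37.6% of doubled regions were CpG-rich (31.8 to 43.7%) against 67.1% of 10867 others, and with 14 to 22 tags 17.2% (13 to 22.4%) against 22.3% of 15529. The share within 3 kb of a TSS behaved likewise at the tall end, with 53.6% of doubled regions at 23 to 86 MAK683 tags against 78.3%, whereas at 14 to 22 tags it was 46.4% against 42.2%. The CpG-rich share of the doubled regions therefore lay between that of other regions with their DMSO height and that of other regions with their MAK683 height. Where peaks of both libraries had to overlap by 50% of each, 22.2% of 99 doubled and 28.7% of all shared regions were CpG-rich, and 39.4% and 46.7% lay within 3 kb of a TSS, so that these orders turned round too.

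**Figure D3:**
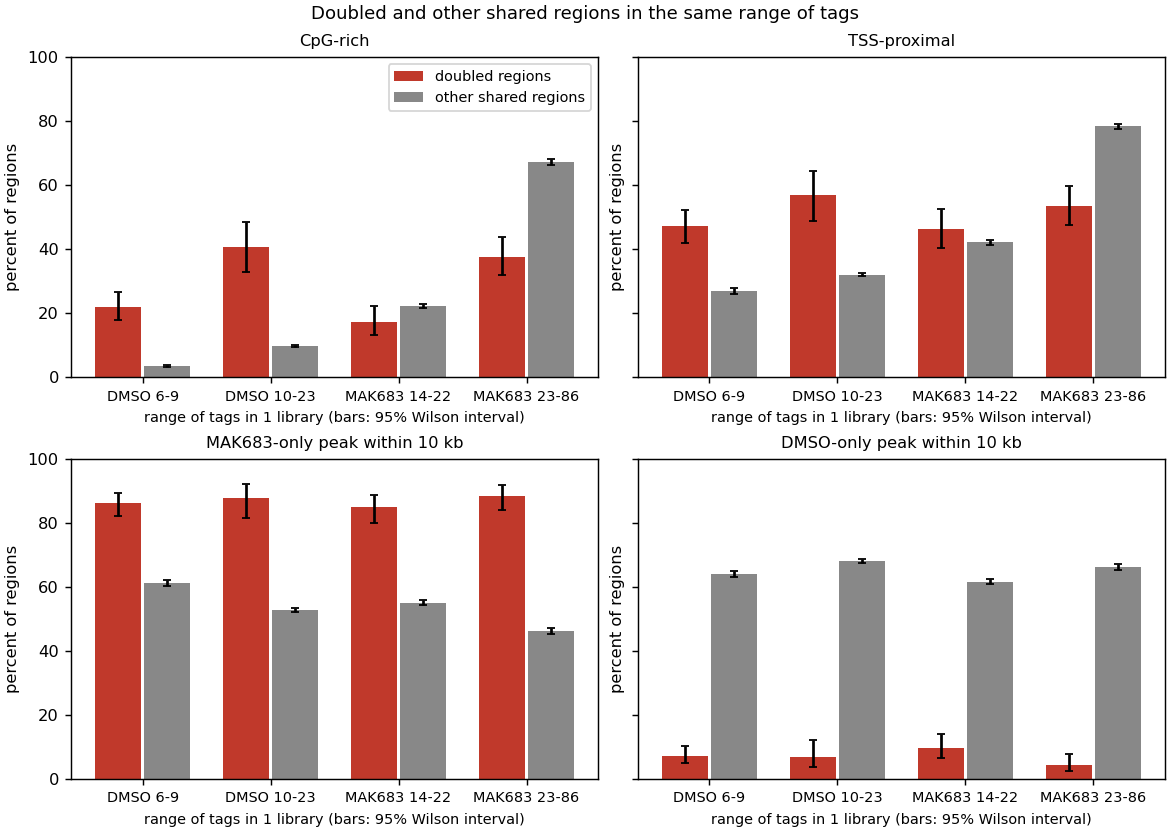
Percent of regions that were CpG-rich, within 3 kb of a TSS, or within 10 kb of a peak called in 1 library only, for doubled regions (red) and other shared regions (grey) in the same range of tags in DMSO or in MAK683, with 95% Wilson intervals. The CpG-rich and TSS-proximal shares of doubled regions are above the others when DMSO tags are matched and below them at 23 to 86 MAK683 tags, whereas the shares near single-library peaks differ in 1 direction in all 4 ranges.

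Peaks called in a single library lay around the doubled regions in other proportions than around the rest. On chromosomes 1 to 22 the DMSO library had 111987 called peaks and the MAK683 library had 158856. A peak called only in MAK683 lay within 10 kb of 86.6% of doubled regions and of 51.5% of all shared regions. A peak called only in DMSO lay within 10 kb of 7% and 67.8%. Both differences were present in each range of tags, with MAK683-only peaks near 84.8 to 88.4% of doubled regions and 46.2 to 61.2% of others, and DMSO-only peaks near 4.40 to 9.60% and 61.5 to 68.0%. Doubled regions were also more isolated, with a median distance of 22637 bp to the nearest other shared region against 1988 bp over all shared regions. Another shared region lay within 100 kb of 76.4% of them and of 96.7% of all. Whether the wider spacing has a part in the low share of DMSO-only neighbours was not tested. The part of the unequal peak numbers in these shares was not tested either. Peaks called only in 1 library come from the same 2 libraries as the heights, so they are no independent measure.

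Shared regions near the doubled ones had higher ratios than the rest. Shared regions that were not doubled had a median log2 ratio of 0.15 (95% order-statistic interval 0.08 to 0.21, 301 regions) within 10 kb of a doubled region. The median was -0.02 at 10 to 50 kb, -0.14 at 50 to 100 kb, -0.26 at 100 to 200 kb and -0.28 at 200 to 500 kb, against -0.33 over all shared regions. The share with a higher MAK683 peak fell from 63.1% within 10 kb to 28.6% at 200 to 500 kb, against 23.8% over all. The regions next to doubled ones thus had a ratio near or just above 0 where most of the genome was below it.

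**Figure D4:**
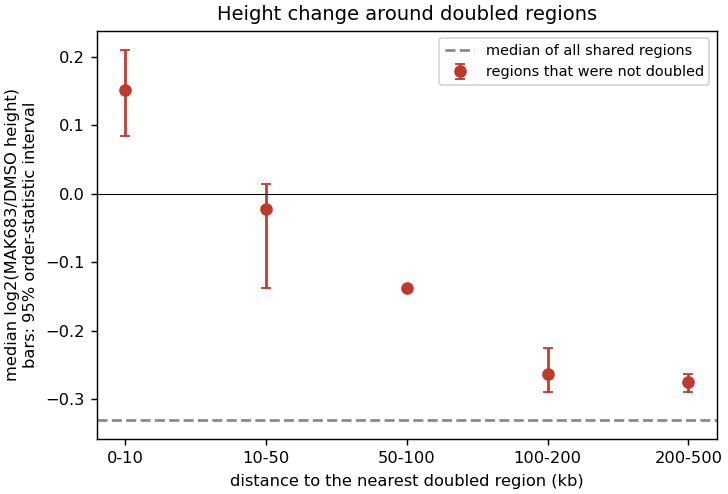
Median log2 ratio of MAK683 to DMSO height (vertical) of shared regions that were not doubled, by distance in kb to the nearest doubled region (horizontal), with 95% order-statistic intervals, which have no width at 50 to 100 kb because many regions share 1 ratio. The median was 0.15 within 10 kb and -0.28 at 200 to 500 kb, and the dashed line marks the median of all shared regions, -0.33.

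Of the 500 regions, 75 (15%) lay within 100 kb of another doubled region, in 33 clusters of which 30 were pairs. A doubled region lay within 100 kb of 2.57% of all shared regions. The cluster of 5 at 21490142 to 21596750 on chromosome 20 spanned NKX2-2, a homeobox factor of the ventral neural tube and pancreatic islets, with pileups of 7 to 10 tags in DMSO and 18 to 23 in MAK683. At its TSS, NKX2-2 had 7 and 20 tags (log2 ratio 1.38, interval 0.13 to 2.62). The cluster of 4 at 155170285 to 155262909 on chromosome 7 lay around EN2, a homeobox factor of the midbrain and hindbrain, with 7 to 10 tags in DMSO and 16 to 28 in MAK683. Pairs lay near the homeobox genes EMX2, HLX, HMX1, IRX4, LHX4 and NKX3-2, near HELT, GATA3 and MEF2C, which encode other transcription factors, and near NRP2, PLXNA2 and PLXNA4, which encode semaphorin receptors.

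The largest cluster was of another kind. Its 6 regions at 91676162 to 91801064 on chromosome 2 lay beside a run of unknown bases at the centromere, among noncoding genes and pseudogenes, at over 1 Mb from the nearest coding TSS. The pileups were 7 to 23 tags in DMSO and 17 to 62 in MAK683, and 3 of the 4 tallest doubled regions in MAK683 belonged to it. Near a centromere reads are often shared among copies, and how such reads were counted is not given in the sources used here. In all, 12 doubled regions (2.40%) and 0.95% of shared regions lay within 1 Mb of a run of unknown bases of at least 1 Mb. Without such regions, 488 doubled regions remained.

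Doubled regions were spread unevenly over the chromosomes. They were 1.44% of shared regions on chromosome 5, 1.40% on chromosome 4 and 1.38% on chromosome 2. On chromosome 19, which is dense in genes, they were 2 of 2433, or 0.0822% (0.0225 to 0.299%), and on chromosome 17 they were 6 of 2931, or 0.205%. The median log2 ratio of all shared regions was -0.45 on chromosome 19 and -0.43 on chromosome 17, and -0.29 on chromosomes 2, 4 and 5. With the log2 ratios of each chromosome shifted so that its median equalled that of all shared regions, 486 regions were doubled.

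By gene, 181 of the 13736 protein-coding genes with a shared region within 3 kb of a TSS had a doubled one there, 1.32%. The 3 kb were measured from the edge of the region, here and for the lists below, so its summit could lie further away. With a window of 1 kb, 141 of 13134 genes had a doubled region. The median log2 ratio of the tallest promoter region was -0.46 over all these genes, and 13.9% of the genes were higher in MAK683. Each shared region was also assigned to its nearest protein-coding TSS, for which the share doubled over all regions was 0.880%. The lists of genes below were chosen with earlier results of these data known, so their counts are descriptions. The lists were not matched for DMSO height, and the doubled share fell from 6.43% at 6 to 7 DMSO tags to 0.0116% above 20. No doubled region had more than 23 DMSO tags. Whether DMSO height has a part in the differences between lists was not tested. Regions at 1 gene share its surroundings and are not replicates.

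Homeobox genes, classic targets of PRC2, were counted in the HOX clusters and outside them. Of the 76 homeobox genes outside the HOX clusters with a shared promoter region, 8 (10.5%, 5.43 to 19.4%) had a doubled one, with a median log2 ratio of 0.02 over the 76. Of the regions nearest to such genes, 29 of 588, or 4.93% (3.46 to 6.99%), were doubled. The IRX4 promoter, of a ventricular heart factor, had 7 tags in DMSO and 26 in MAK683 (log2 ratio 1.76, interval 0.55 to 2.96). MEIS1, a cofactor of HOX proteins, had 7 and 21 tags (1.45, 0.21 to 2.68). EMX2, a forebrain and urogenital factor, had 2 doubled regions within 3 kb of its TSS, with 9 and 25 tags (1.34) and 8 and 24 tags (1.45). The summit of the region with 9 and 25 tags lay 4644 bp from that TSS. EN2 and IRX6 had ratios of 1.32 and 1.28 with intervals above 0, and HLX had a ratio of 1.22 with an interval that reached below 0. Of the 36 HOX genes, only HOXD9 had a doubled promoter region, at 7 and 22 tags (1.51, 0.29 to 2.74), and the median over the 36 was -0.60. HOXD13 came close to the limit, with 13 and 28 tags (0.97).

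Other developmental transcription factors had doubled regions both at promoters and away from them, at similar shares. Of the 63 with a shared promoter region, 3 (4.76%, 1.63 to 13.1%) had a doubled one. Of the 391 nearest regions, at promoters or not, 18 (4.60%, 2.93 to 7.16%) were doubled, near 16 genes. The promoter regions were those of GLI3, a hedgehog pathway factor, with 13 and 30 tags (log2 ratio 1.07), BHLHE22, a neuronal factor, with 10 and 24 tags (1.12), and FOXA2, an endoderm and floor plate factor, with 8 and 18 tags (1.03). The interval of FOXA2 reached below 0. The upstream GATA3 region and those near HAND1 and PAX3 are further from a coding start than 3 kb.

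Among signaling genes, 5 of 40 genes of the BMP, TGF-beta, FGF and hedgehog list (12.5%, 5.46 to 26.1%) and 3 of 34 WNT genes (8.82%, 3.05 to 23%) had a doubled promoter region. FST, which encodes the activin antagonist follistatin, had 14 tags in DMSO and 37 in MAK683 (log2 ratio 1.26, interval 0.38 to 2.15). TGFBR2, the type II receptor of TGF-beta, had 9 and 24 tags (1.28, 0.17 to 2.38). FGF14 had 10 and 23 tags (1.06), and the ligand genes SHH and FGF5 had 7 and 17 (1.14) and 9 and 20 tags (1.01). The intervals of these last 3 reached below 0. Of the WNT genes, the receptor gene FZD10 had 7 and 24 tags (1.64, 0.42 to 2.85), the secreted antagonist gene SFRP4 had 12 and 27 (1.03, 0.05 to 2.01), and LGR5, a receptor of R-spondins, had 10 and 23 (1.06, -0.01 to 2.13). By nearest gene, 2.01% of the regions of the first list and 1.93% of the WNT regions were doubled.

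Matrix and integrin genes had 7 of 73 with a doubled promoter region, 9.59% (4.72 to 18.5%). ITGA2, the collagen-binding integrin alpha 2, had 9 tags in DMSO and 32 in MAK683 (log2 ratio 1.69, interval 0.63 to 2.76). COL4A1 and COL4A2, the basement membrane collagen chains transcribed in opposite directions from 1 promoter, shared a region with 11 and 31 tags (1.36, 0.36 to 2.35) and count as 2 of the 7 genes. The others were ADAMTS9 (8 and 25 tags, 1.51), COL22A1 (10 and 29, 1.40), LAMA4 (9 and 21, 1.08) and COL12A1 (10 and 23, 1.06). The intervals of the last pair reached below 0. By nearest gene, 1.53% of the regions of this list were doubled (0.744 to 3.13%). None of the 19 cadherin and desmosome genes had a doubled promoter region, and 1 of the 107 regions nearest to them, 0.935%, was doubled.

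Genes of the nervous system and potassium channels were counted likewise. Of 64 axon guidance and synapse genes, 7 (10.9%, 5.40 to 20.9%) had a doubled promoter region, and 11 of 357 nearest regions, 3.08% (1.73 to 5.43%), were doubled. NRP2, a receptor of semaphorins, had 2 such regions, with 15 and 36 tags (log2 ratio 1.12, interval 0.26 to 1.99) and 8 and 24 tags (1.45). NRP1 (8 and 21 tags, 1.25), SYT1, a calcium sensor of synaptic vesicles (11 and 26, 1.10), and ROBO3 (9 and 22, 1.15) had intervals above 0. Those of PLXNA2, PLXNA4 and EPHA10, with ratios of 1.22, 1.03 and 1.14, reached below it. Of 49 potassium channel genes, 3 (6.12%) had a doubled promoter region. KCNK9 had 9 and 24 tags (1.28), KCND3 7 and 16 (1.05) and KCNH5 9 and 20 (1.01), and the interval of KCNK9 alone lay above 0.

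Of 30 genes named in the study, 22 had a shared promoter region and 4 had a doubled one, CDKN2A, COL4A1, COL4A2 and ITGA2. The study chose this list on the same cell line, so it is not independent evidence of direction. CDKN2A, which encodes the cell cycle inhibitor p16, had 18 tags in DMSO and 41 in MAK683 (log2 ratio 1.05, interval 0.25 to 1.85). The median log2 ratio over the 22 was 0.61, and 18 were higher in MAK683. TBX3 (22 and 45 tags, 0.89), GATA4 (9 and 18, 0.86) and FBN2 (11 and 22, 0.86) fell short of the limit, whereas FBN1 (46 and 31, -0.71) and HLA-B (24 and 15, -0.82) were lower in MAK683.

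For the remaining lists the counts were too small to be set apart from the 1.32% of all genes. None of 73 ribosomal protein genes and none of 31 genes for Polycomb subunits had one at the promoter, which allows shares of up to 5% and 11.0% by the Wilson interval, and the median log2 ratios were -0.64 and -0.57. CDKN2A was the only one of 48 cell cycle genes. Of 31 genes for senescence-associated secreted factors, only IL7, a cytokine gene, had a doubled promoter region, at 9 and 28 tags (1.5, 0.42 to 2.58). None of 41 interferon and antigen presentation genes had one. The promoters of these lists were not matched for DMSO height to those of other genes.

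**Figure D5:**
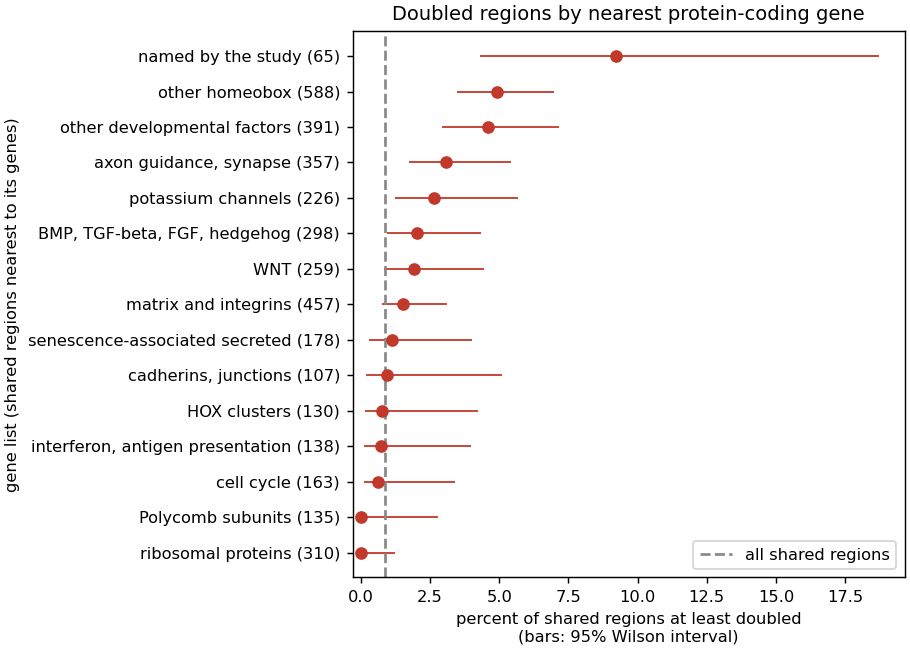
Percent of shared regions that were at least doubled (horizontal) among the regions nearest to the protein-coding genes of each list (vertical, number of regions in brackets), with 95% Wilson intervals. The lists were not matched for DMSO height. The dashed line marks the 0.880% of all shared regions; other homeobox genes reached 4.93% and ribosomal protein genes 0%, and the list named by the study, at 9.23%, was chosen on this cell line.

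Short motifs were searched on both strands of the 200 bp on each MAK683 summit. The AP-1 motif TGANTCA was found in 4.40% of doubled regions and 5.25% of all shared regions, the TEAD motif GGAATG in 13.2% and 11.6%, the RUNX motif TGTGGT in 11.2% and 12.5%, and the E-box CAGCTG in 15.2% and 14.7%. The GATA motif AGATAA, the SOX motif ACAATG and the homeobox motif TAATTA were in 4.8%, 6% and 1% of doubled regions and in 5.30%, 6.60% and 1.61% of all. None of these 7 differed by more than the Wilson interval of the doubled regions. Motifs common at active promoters were rarer under CpG-rich doubled regions than under CpG-rich shared regions as a whole. The ETS motif CCGGAAG was in 3.65% (1.57 to 8.26%) of the 137 and in 13% of all CpG-rich regions, CCAAT in 10.9% (6.75 to 17.3%) and 23.7%, the NRF1 motif TGCGCA in 4.38% (2.02 to 9.23%) and 10.1%, the E-box CACGTG in 2.19% (0.747 to 6.24%) and 6.61%, and the GC box GGGCGG in 51.1% (42.8 to 59.3%) and 65.5%. CAGCTG was found more often, in 19% (13.3 to 26.4%) against 11.6%, and the share of the TEAD motif, 8.76% (5.08 to 14.7%) against 6.04%, was within its interval. Doubled regions had at most 23 DMSO tags, a limit that CpG-rich regions as a whole did not have. Over all doubled regions, ETS, CCAAT, NRF1, CACGTG and the GC box were in 1.8%, 17.8%, 2.2%, 2.4% and 19.8%. The 12791 other shared regions in the same ranges of DMSO and MAK683 tags had 2.58%, 18.6%, 2.81%, 3.33% and 18.5%, each within the interval of the doubled regions. Of these others 17.4% were CpG-rich, against 27.4% of doubled regions. The E-box motifs share no 6-letter match, whereas other motifs may overlap each other. A match is only a run of letters and does not show binding.

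Neither library held a peak in SMARCB1, the gene that rhabdoid tumors lose. The promoter of VIM, a mesenchymal gene, had 44 tags in DMSO and 41 in MAK683, and that of EPCAM, an epithelial gene, 12 and 11. The promoters of PTPRC, CD3E and ALB, markers of blood and liver cells, held no peak in either library.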

How the data were processed

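ATAC-seq of G401 cells gave 1 DMSO and 1 MAK683 library. Per the study's methods, the authors trimmed reads with Trim-galore and used Bowtie2 for alignment to hg19. MACS 2.1.1.20160309, per the file headers, or another version, per those methods, then called peaks in each library by itself, without control or local background, with 1 tag kept per position, a shift of -100 bp, an extension of 200 bp and a q-value cutoff of 0.05. Each deposited peak has a summit pileup (coverage signal in tags), a fold enrichment (ratio) and −log10 p- and q-values. Tags after filtering, per the file headers, were 16598348 in DMSO and 18265284 in MAK683, so that 1 tag is 0.0602 and 0.0547 RPM.

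Peaks were merged, annotated and counted with Python 3.11.15, numpy 2.4.6, scipy 1.17.1, pandas 2.3.3 and pysam 0.24.0 (figures with matplotlib 3.10.9), using GRCh37 sequence and GENCODE release 44 mapped to GRCh37. The merging was tested on simulated data. With 1 library per group there was no test. Counting intervals (95%, Poisson for tags, Wilson for shares) cover counting error only. Distances to a TSS were taken from the MAK683 summit for the nearest gene and from the region for the 3 kb window. A single TSS was used per gene, that of its Ensembl canonical transcript or, without one, of its longest transcript. Alternative start sites of a gene were not counted. The members and the gene and motif lists were chosen with earlier results of these data known. The regions named are the 10 with the largest ratio (at least 20 MAK683 tags) and the 10 tallest in MAK683, overall and at coding promoters. Added to these were the 3 tallest of each list, those just at the limit, and all those of the listed genes that the study names. Ties were kept. The printed sequences, further list genes, the clusters and the regions just short of the limit were chosen after their values were seen. Some named regions and 1 marker are not reported here. Chromosomes X and Y and unplaced sequences were left out of the regions. Alternatives changed the scaling, the limits, the overlap and the windows.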

Additional observations from a re-analysis of the deposited data

Results flagged for a closer look

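Regions outside chromosomes 1 to 22 belong to no comparison above and were flagged because some of them also reached the limit. On chromosome X, 5 of 1030 shared regions, 0.485% (95% Wilson interval 0.208 to 1.13%), were at least doubled. On unplaced sequences and the mitochondrion, 3 of 297 were, 1.01% (0.344 to 2.93%).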

How the results depend on the processing

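With 1 library per group, neither the groups nor the limit of 1 on the log2 ratio have a replicate check. No paired analysis was possible because each group has 1 library. Of 157 alternative values, 84 moved by less than their interval or, for counts, less than 1.5 times, and 73 moved further. The median ratio of neighbours alone changed sign, from a value whose interval held 0. It stayed above the median of all shared regions in each setting. The cause was not tested except where the construction of the alternative shows it.

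The number of doubled regions was 978 (1.72% of shared regions) with no depth scaling, 1774 (3.12%) with the ratio centred on the median of all shared regions, 320 with an interval above 0, 148 with at least 10 DMSO tags or with a −log10 q of at least 5, and 99 (0.282%) of 35131 regions with 50% reciprocal overlap, which the longer MAK683 peaks often miss. In the order no scaling, centring, 10 tags, q limit and reciprocal overlap, the genes with a doubled promoter region numbered 314, 517, 70, 70 and 26.

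The CpG-rich share was 21.8% with centring, 40.5% with 10 tags or the q limit, 32.5% with an interval above 0, 22.2% with reciprocal overlap and 41.0% within 1 kb of the summit. All shared regions had 32.2% under the q limit and 28.7% with reciprocal overlap, so that the doubled regions were then below them in the second case. The median CpG observed/expected ratio was 0.29 with no scaling or centring, 0.42 with 10 tags or the q limit, 0.36 with at least 1 RPM in MAK683, 0.37 with an interval above 0 and 0.27 with reciprocal overlap. Median GC was 56.6% with 10 tags or the q limit, 54.9% with an interval above 0, 51.0% with reciprocal overlap, and 55.0% and 51.9% in windows of 200 and 1000 bp. The TSS-proximal share was 42.6% with centring, 56.8% with 10 tags or the q limit, 39.4% with reciprocal overlap (46.7% of all) and 35.8% for a 1 kb window. The protein-coding TSS share was 29.5%, 43.9%, 25.3% and 27.4% in the same order.

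The median log2 ratio of neighbours within 50 kb, 0.03 with an interval of -0.01 to 0.08, was -0.14 with no scaling, centring, reciprocal overlap or a distance of 200 kb, 0.22 with 10 tags, 0.10 with an interval above 0, 0.14 with the q limit and 0.15 within 10 kb. No scaling and centring changed only which regions counted as doubled, and the neighbours' own ratios stayed scaled for depth and uncentred. The median of all shared regions was -0.33, or -0.34 with the q limit and -0.36 with reciprocal overlap. A MAK683-only peak lay near 70.3% with the q limit, 82.8% with reciprocal overlap and 98.2% at 50 kb. Another doubled region lay near 20.9% with no scaling, 28.5% with centring, 4.05% with 10 tags or the q limit, 11.8% with 1 RPM, none (0%) with reciprocal overlap and 11.2% at 20 kb.

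By nearest gene, the doubled share of homeobox regions was 7.31% with no scaling, 9.52% with centring, 1.02% with 10 tags, 3.40% with an interval above 0, 1.67% with the q limit and 0.974% with reciprocal overlap. That of other developmental factors was 8.44%, 14.3%, 0.767%, 2.56%, 1.35% and 2.03% in the same order. That of axon and synapse genes was 6.72% with centring, 1.12% with 10 tags and 0.515% with reciprocal overlap. The share of all shared regions in that order was 1.72%, 3.12%, 0.260%, 0.563%, 0.418% and 0.282%. Several choices were made after seeing the data. They were shifting chromosome medians to the median of all shared regions, and leaving out regions near long runs of unknown bases. The wider CpG window, the assignment to nearest genes and a correction of the list of genes named in the study were the others. Before the correction, which took out MET and added FOXO1 and WNT6, 4 of 21 genes had a doubled promoter region, with a median log2 ratio of 0.57.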

Other observations

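Promoters of noncoding genes were among the doubled regions as well. Of 6481 lncRNA genes with a shared region within 3 kb of a TSS, 111 had a doubled one, 1.71% (95% Wilson interval 1.42 to 2.06%), and of 1802 pseudogenes 18 did, 0.999% (0.633 to 1.57%). At 71 of the 500 doubled regions, 14.2% (11.4 to 17.5%), a noncoding gene was the only one with a TSS within 3 kb. That share was not counted over all shared regions. Of these, 41.6% lay within 3 kb of any TSS and 29.8% of a coding one, against 50% and 35.8% of doubled regions. One of the 71, at LINC01798 near MEIS1, had 17 tags in DMSO and 42 in MAK683 (log2 ratio 1.17). It was among the 10 tallest doubled regions in MAK683. In an intron nearest to MEF2C, which encodes a factor of muscle and neurons, a distal CpG-rich region had 13 and 42 tags (1.55). Regions that were CpG-rich and more than 3 kb from the TSS used for any gene made up 6.2% of the doubled regions and 2.42% of all shared regions. Intergenic regions nearest to TEX29 and to GYPC had 18 and 44 tags (1.15) and 14 and 43 tags (1.48).

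Some coding promoters with high ratios belonged to no list. They were chosen after their values were seen. PAMR1 had 9 tags in DMSO and 34 in MAK683 (log2 ratio 1.78), and RIMS1, a gene of the presynaptic active zone, had 7 and 24 (1.64). VGLL2, a gene for a TEAD cofactor, had 8 and 27 tags (1.62), TOX3 had 7 and 23 (1.58), and CCN3, a gene for a secreted matricellular protein, had 9 and 29 (1.55). Each had at most 9 DMSO tags.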
